A study of Homo sapiens with 8 samples.

Results

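The response of H1703, a human lung cancer cell line, to interferon-gamma was described from 1 pair of RNA sequencing libraries, 1 untreated and 1 treated, out of 8 libraries in the study. The pair was chosen by its labels, which name the line and the agent, and no measured value entered the choice. Both H1703 cultures grew in RPMI medium with 10% FBS and 1% penicillin/streptomycin, and the treated culture received 20 ng/ml recombinant human IFN-gamma for 72 h. The other 6 libraries were the same pairs of 549 (labelled lung cancer), A375 (labelled skin, known as a melanoma line) and A498 (labelled kidney), and they serve here as context. No line had a replicate culture in either arm. A ratio within H1703 therefore has no replicate check and no p-value, and it is given with an exact 95% binomial interval that covers counting error only. These are reads without molecular identifiers, so the intervals are narrower than the true uncertainty. The H1703 libraries held 7101076 counts (untreated) and 8313169 counts (treated), and the 8 libraries ranged from 6559933 to 9291154.

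IFN-gamma is made by T cells and natural killer cells. It binds a receptor of IFNGR1 and IFNGR2 chains, which activates the kinases JAK1 and JAK2 and through them STAT transcription factors. STAT dimers bind gamma-activated sites (GAS) in promoters, among them that of IRF1, whose protein binds interferon-stimulated response elements (ISRE) of further genes. In tumour cells the cytokine is best known for raising antigen presentation, chemokines and checkpoint ligands, and for restricting growth.

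The marker genes of the label were read first. PDGFRA, a growth factor receptor that H1703 is known to carry amplified, had 8818 counts in untreated and 7231 in treated H1703, against at most 155 in any library of the other lines. SOX2, a squamous lineage factor, had 1776 and 1223 counts, while the squamous keratins KRT5, KRT6A and KRT14 were at 0 in both H1703 libraries. The lung factor NKX2-1 had 12 counts in each library, and the surfactant genes SFTPC and SFTPA1 had 0. Of 10 lung adenocarcinoma markers 5 were at 0 in both libraries and 2 had 20 counts over the pair, NKX2-1 and MUC1 (45 and 72). Of 10 general epithelial markers 2 were at 0 in both, among them EPCAM, and CDH1 (E-cadherin) had 1 and 4 counts. The epithelial keratin KRT18 had 169 and 161 counts, CLDN7 had 118 and 135, KRT8 had 20 and 13, and CLDN4 had 22 and 4. The general epithelial list summed to 43.4 CPM in untreated H1703, against 5310.0 in 549, 70.2 in A375 and 1407 in A498. The mesenchymal filament gene VIM had 9653 and 16793 counts. Of 10 mesenchymal markers, PDGFRA among them, 6 had 20 counts over the pair and 2 were at 0 in both. That list summed to 2582 CPM in untreated H1703, against 2953 in 549, 6376 in A375 and 2659 in A498. PTPRC, CD3E and IFNG itself were at 0 in both, and CD68, which many cell types express, had 37 and 112 counts.

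Among 24462 gene symbols, 13153 had 20 counts or more over the H1703 pair. The ratio of CPM, counts scaled to the library total adjusted by TMM factors, was computed for each of these genes. Of these, 400 genes (3.04%) were past 2-fold higher in the treated library and 193 (1.47%) past 2-fold lower. The log2 ratio uses a prior count of 2 and is called past 2-fold at 1 or −1. With the whole counting interval past 2-fold, 196 genes were higher and 8 lower. With 200 counts or more over the pair, the numbers were 168 and 12. Of the 400 higher genes, 125 had under 10 counts in the untreated library.

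H1703 had the narrowest distribution of ratios of the 4 lines. Over 6819 genes with 200 counts or more in every pair, the middle 50% of log2 ratios ran from −0.15 to 0.16 in H1703, from −0.31 to 0.40 in 549, from −0.39 to 0.43 in A375 and from −0.37 to 0.36 in A498. In this set 111 genes were past 2-fold higher and 3 lower in H1703, against 369 and 269 in 549, 566 and 426 in A375, and 451 and 234 in A498. The SD of the ratios was 0.386 in H1703 and 0.678, 0.778 and 0.690 in 549, A375 and A498. Each line is 1 pair, so the spread between cultures is not part of these values.

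**Figure D1:**
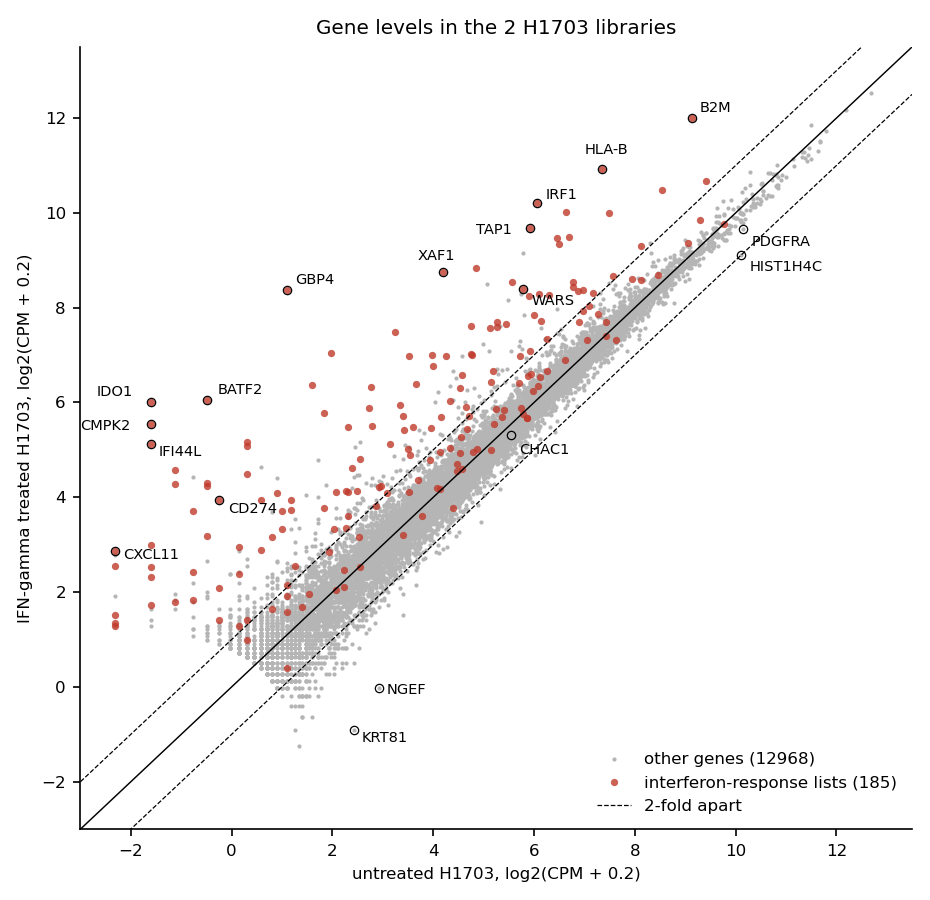
Level of each of 13153 genes in untreated (x axis) and IFN-gamma treated H1703 (y axis), as log2(CPM + 0.2), with the 185 genes of the interferon-response lists in red, the solid line at equal levels and the dashed lines 2-fold apart. IRF1 (66.3 to 1181 CPM), HLA-B (162 to 1952 CPM) and GBP4 (1.93 to 332 CPM) stand above the upper dashed line, and CHAC1 (46.5 to 39.5 CPM) lies near the solid line.

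The signalling chain itself was present in H1703 before treatment. IFNGR1, the ligand-binding chain, had 105 counts untreated and 108 treated. IFNGR2 had 589 and 907, and JAK1 had 1342 and 1518. None of these was past 2-fold. JAK2, the kinase bound to IFNGR2, had 59 and 167 counts, a ratio of 2.45 (interval 1.81 to 3.36), and it was the 1 gene of 7 in the receptor and kinase list past 2-fold higher. The median log2 ratio of that list was 0.26, against −0.01 for all genes with 20 counts.

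Transcription factors downstream of the receptor were much higher in treated H1703. Of 12 listed STAT, IRF and partner factors, 10 had 20 counts, 3 of them with under 10 untreated, and 9 were past 2-fold higher. IRF1 had 515 counts untreated and 10579 treated, or 17.8-fold (interval 16.3 to 19.5). At 1181 CPM, IRF1 in treated H1703 was above the 672 of treated 549, the 769 of A375 and the 1053 of A498. BATF2, an AP-1 family partner of IRF1, had 4 and 591 counts (128-fold, 49.8 to 472). STAT2 and IRF9, partners in the ISGF3 complex, had 50 and 528, and 86 and 290 counts. IRF8, best known from myeloid cells, had 1 and 70 counts, a ratio of 60.7 with an interval of 10.5 to 2431. The median of the list was 3.26 in H1703, against 2.17 in 549, 2.65 in A375 and 3.02 in A498.

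Brakes of the pathway gave smaller ratios. SOCS1, which blocks JAK kinases, had 3 and 30 counts, a ratio of 8.67 (interval 2.70 to 44.4). USP18, which removes ISG15 from proteins and damps type I interferon signalling, had 92 and 400 counts, or 3.77-fold (3 to 4.78). CISH, a further SOCS family member, had 7 and 20 counts. These were the 3 of 10 feedback inhibitors past 2-fold higher. SOCS3 had 2178 and 3449 counts, a log2 ratio of 0.46.

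The promoters of 4 genes are shown because H1703 separates them: IRF1, CD274 and TAP1 were far higher in treated H1703, whereas CHAC1, a gene of the amino acid stress response described below, was not, although it rose in the other lines. The windows are RefSeq sequences of GRCh38.p14, from 250 bases before to 50 after the annotated start, written 5′ to 3′ on the gene's strand. IRF1 is at chr5:132490724-132491023 (minus strand), CD274 at chr9:5450292-5450591 (plus), TAP1 at chr6:32853655-32853954 (minus) and CHAC1 at chr15:40953221-40953520 (plus). Capitals mark, on either strand, a match to TTCNNNGAA (GAS), to GAAANNGAA (a core of the ISRE) or to TGATGNAA (the element of C/EBP and ATF factors).
IRF1: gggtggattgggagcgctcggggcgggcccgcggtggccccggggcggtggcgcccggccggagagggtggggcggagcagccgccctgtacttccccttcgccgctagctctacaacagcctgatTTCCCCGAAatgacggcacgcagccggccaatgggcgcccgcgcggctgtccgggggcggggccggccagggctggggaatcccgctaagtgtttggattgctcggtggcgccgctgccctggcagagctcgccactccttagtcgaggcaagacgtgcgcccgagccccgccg
CD274: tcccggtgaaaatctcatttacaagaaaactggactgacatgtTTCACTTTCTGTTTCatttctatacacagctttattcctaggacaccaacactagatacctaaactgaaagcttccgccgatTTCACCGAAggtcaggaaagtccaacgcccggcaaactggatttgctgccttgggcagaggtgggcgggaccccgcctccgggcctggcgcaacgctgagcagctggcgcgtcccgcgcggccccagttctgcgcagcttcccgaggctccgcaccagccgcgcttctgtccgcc
TAP1: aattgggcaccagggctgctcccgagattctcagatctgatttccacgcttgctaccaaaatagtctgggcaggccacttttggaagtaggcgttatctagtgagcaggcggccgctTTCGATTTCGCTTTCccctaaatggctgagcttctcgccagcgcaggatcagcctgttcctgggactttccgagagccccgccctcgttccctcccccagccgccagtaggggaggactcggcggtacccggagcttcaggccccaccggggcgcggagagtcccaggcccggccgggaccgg
CHAC1: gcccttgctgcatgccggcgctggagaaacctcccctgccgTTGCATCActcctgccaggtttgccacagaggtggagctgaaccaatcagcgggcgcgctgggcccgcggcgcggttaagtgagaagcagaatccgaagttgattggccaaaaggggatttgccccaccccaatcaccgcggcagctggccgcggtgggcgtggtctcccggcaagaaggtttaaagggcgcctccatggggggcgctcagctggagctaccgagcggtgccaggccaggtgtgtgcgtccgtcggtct
The IRF1 window holds a GAS match that begins at −124. The CD274 window holds a GAS match at −125 and overlapping ISRE core matches at −207 and −201, and TAP1 holds overlapping ISRE core matches at −133 and −127. The CHAC1 window holds neither, and has a TGATGNAA match at −209. These 4 windows do not stand for all named genes. Those of XAF1, HLA-B and PSMB9, which were higher in treated H1703, hold no GAS or ISRE core match. Those of PCK2 and PSAT1, which rose only in the other lines, hold no TGATGNAA match, while those of GBP1 and JAK2 do (−74 and −163). Over all 27305 promoter windows, TTCNNNGAA occurred in 7.88%, GAAANNGAA in 8.29%, both in 0.949%, and TGATGNAA in 3.67%.

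Class I antigen presentation, which shows peptides to CD8 T cells, was higher in treated H1703 at most steps. Of 22 listed genes 21 had 20 counts, 1 of them with under 10 untreated, and 18 were past 2-fold higher and 0 lower. B2M, the light chain, had 4344 counts untreated and 36724 treated, or 7.33-fold (interval 7.10 to 7.57). HLA-B had 1260 and 17493 (12-fold, 11.4 to 12.8), and HLA-C had 2881 and 12873 (3.88-fold, 3.72 to 4.04). The ratios of these heavy chains were thus unequal. HLA genes share sequence, so reads may be split among them.

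Genes of peptide supply were higher too. TAP1, a subunit of the peptide transporter, had 470 and 7362 counts, or 13.6-fold (interval 12.4 to 14.9). PSMB9, PSMB8 and PSMB10, the catalytic subunits of the immunoproteasome, were 7.19-, 5.08- and 3.44-fold higher. PSMB8 overlaps the antisense gene PSMB8-AS1 (428 and 5095 counts), and whether reads were assigned by strand is not given in the sources used here. The 14 standard proteasome subunits had 0 genes past 2-fold, with log2 ratios of 0.09 to 0.83 and a median of 0.50. The median was 0.25 in 549, −0.07 in A375 and −0.02 in A498, and H1703 was the highest of the 4 lines for 8 of the 14. NLRC5, the transactivator of class I genes, had 8 and 321 counts (34.8-fold, 17.4 to 81.3). CALR, CANX and PDIA3, folding factors of class I chains, had log2 ratios of 0.32, 0.01 and 0.26. The class I median was 1.84 in H1703, below the 2.74, 2.18 and 2.04 of 549, A375 and A498.

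Of the class II genes, CIITA and the chains HLA-DRA, HLA-DPB1 and HLA-DQA1 were near the detection limit in H1703 in both arms. CIITA, the master regulator of class II genes, had 1 count untreated and 2 treated, a ratio of 1.73 with an interval of 0.0903 to 102. It had 0 and 8 counts in 549, 6 and 491 in A375, and 11 and 152 in A498. HLA-DRA had 0 and 1, HLA-DPB1 had 0 and 1, and HLA-DQA1 had 0 in both. Of 15 listed genes 6 had 20 counts over the pair, 2 of them with under 10 untreated, and 5 were past 2-fold higher. CD74, the invariant chain, had 0 and 18 counts, under the minimum of 20, and the lower bound of its interval was 3.81-fold. HLA-DRB1 had 36 and 90 counts, and HLA-DPA1 had 55 and 124. The other lung line was also low: 549 had 0 and 130 CD74 counts, 0 and 8 of HLA-DRA, 0 and 13 of HLA-DRB1 and 0 and 7 of HLA-DPA1. A375 and A498 held far more, with 25576 and 9476 CD74 counts after treatment. The melanocyte factor SOX10 had 3952 and 4269 counts in A375, and 0 and 2 in H1703, and the part of reads from other libraries in the class II values was not tested. A protease and a reductase of the pathway were better covered. CTSS, a lysosomal protease, had 16 and 136 counts (7.37-fold, 4.38 to 13.3), and IFI30, a thiol reductase, had 296 and 1728 (5.06-fold, 4.47 to 5.75). IFI30 made up 38.1 of the 53.9 CPM of the list in untreated H1703, and 193 of 242 in treated H1703.

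Guanylate-binding proteins, GTPases that attack intracellular pathogens, gave the highest list median, 4.11, and 6 of 7 listed genes had 20 counts, 3 with under 10 untreated. GBP6 was at 0 in both libraries. GBP4 had 15 and 2970 counts, or 172-fold (interval 104 to 307), and GBP1 had 29 and 1184 (35.4-fold, 24.5 to 53.1). GBP7 had 2 and 213 counts, a ratio of 92.3 (25.2 to 768). GBP5 had 1 and 28 counts, a log2 ratio of 3.12, against 6.18, 5.69 and 10.42 in 549, A375 and A498. GBP genes lie in a cluster of similar sequences, so the split among them is uncertain.

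Antiviral effectors made up the largest list. Of 56 genes 53 had 20 counts, 11 of them with under 10 untreated, 44 were past 2-fold higher and 0 lower. CMPK2, a mitochondrial nucleotide kinase, had 1 and 416 counts (ratio 361, interval 64.4 to 14282), and IFI44L had 1 and 311 (269.7, interval 48.0 to 10686). OAS1 and OAS2, sensors of double-stranded RNA, had 8 and 303, and 2 and 172 counts. XAF1, which promotes cell death, had 140 and 3841 (23.8-fold, 20.1 to 28.4). IFIT3, which restricts foreign RNA, had 72 and 1615 (19.4-fold, 15.4 to 25), and IFI6 had 221 and 4103 (16.1-fold, 14.1 to 18.5). A few textbook members stood low in H1703. IFI27 had 15 and 32 counts, a log2 ratio of 0.81, against 4.85, 7.53 and 3.67 in 549, A375 and A498. MX1, a GTPase that blocks viral replication, had 8 and 16 counts, a log2 ratio of 0.67 against 4.54, 2.41 and 5.21. MX2 and EPSTI1 had 0 untreated and 2 treated counts each. The list median was 2.24 in H1703 and 2.76, 2.41 and 3.46 in the other lines.

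**Figure D2:**
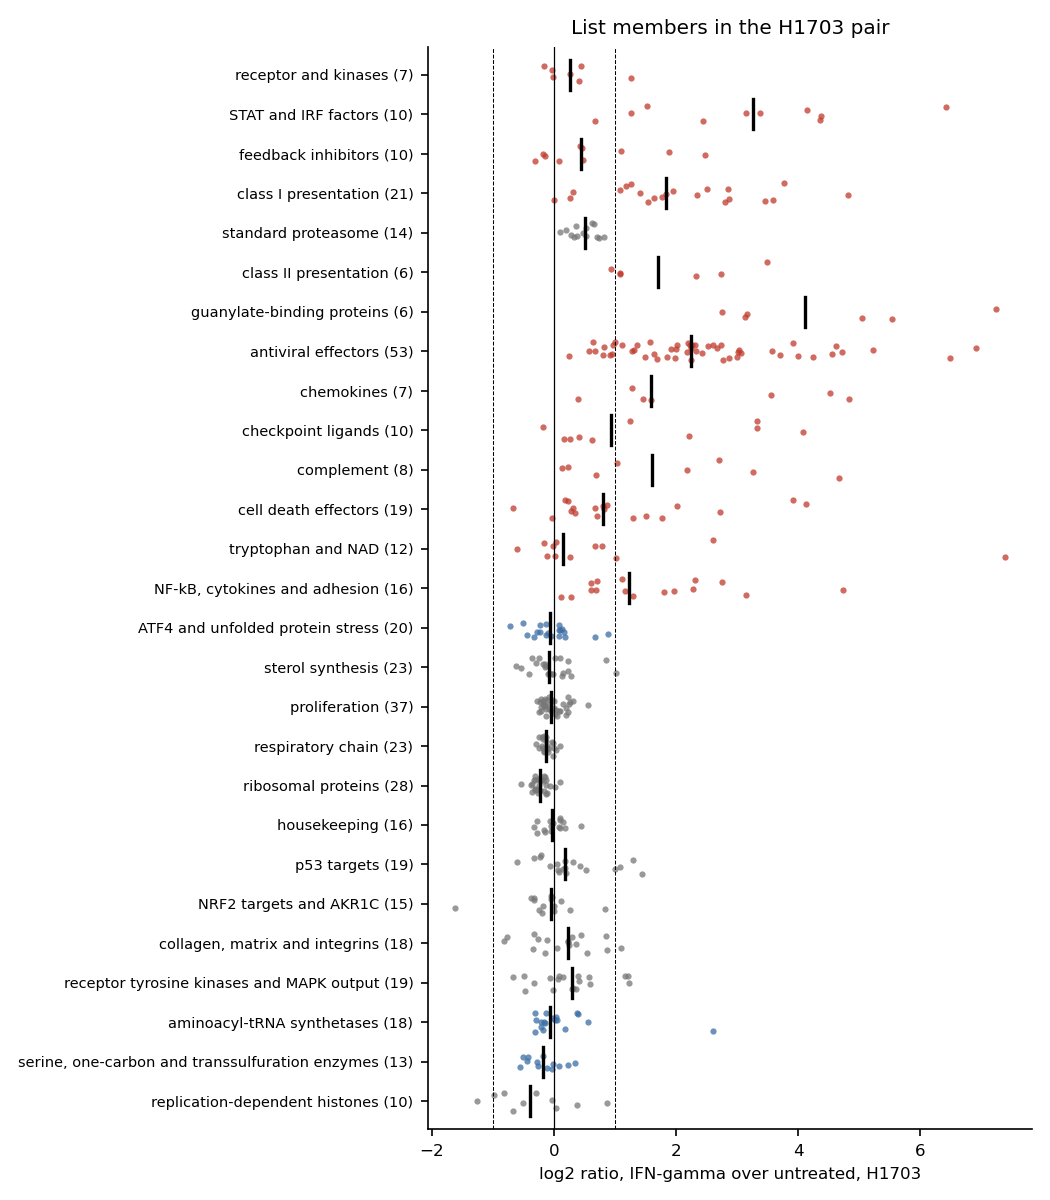
Log2 ratio of treated over untreated H1703 for every list member with 20 counts or more (1 point per gene, number of genes in brackets, black bar at the median, dashed lines at 2-fold). Interferon-response lists are red, stress and metabolic lists blue, and the guanylate-binding protein median of 4.11 is the highest, whereas the ATF4 and proliferation medians lie at −0.07 and −0.04.

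Chemokines were higher in treated H1703, some of them from 0 untreated counts. CXCL9, CXCL10 and CXCL11, ligands of CXCR3, had 0 counts in untreated H1703 and 17, 51 and 64 in treated H1703. The lower bounds of their intervals were 3.58-, 11.6- and 14.6-fold, and CXCL9 was under the minimum of 20 counts. CCL5, which attracts T cells, had 51 and 713 counts (12.1-fold, interval 9.12 to 16.4), and CCL2, which draws monocytes, had 283 and 904 (2.77-fold, 2.42 to 3.18). Of 15 listed chemokines 7 had 20 counts, 3 of them with under 10 untreated, and 6 were past 2-fold higher. The log2 ratios of CXCL9, CXCL10 and CXCL11 were 3.05, 4.51 and 4.83 in H1703. They were higher in A498, at 7.61, 9.81 and 9.11, and lower in 549, at 0.51, 2.01 and 1.78, and in A375, at 2.65, 4.18 and 2.63.

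Checkpoint ligands were higher in part. CD274, which encodes PD-L1, had 5 and 135 counts (23.4-fold, interval 9.79 to 73.3). PDCD1LG2, which encodes PD-L2, had 0 and 21 (lower interval bound 4.52-fold). LGALS9 (galectin-9) had 10 and 136, TNFRSF14 had 39 and 218, and CD47, the signal against phagocytosis, had 410 and 1126. These were the 5 genes past 2-fold higher among 16 listed, of which 10 had 20 counts, 2 with under 10 untreated. CD276 (B7-H3) had 451 and 457 counts, and PVR, a ligand of TIGIT, had 412 and 531. LGALS9, TNFRSF14 and CD47 had log2 ratios of 3.32, 2.22 and 1.25 in H1703 and 6.0, 4.61 and 2.18 in A498, and values from −0.60 to 0.73 in 549 and A375.

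Complement and cell death genes were also higher in part. Of 13 listed complement genes 8 had 20 counts, 3 with under 10 untreated, and 5 were past 2-fold higher. C1R, a protease of the classical pathway, had 52 and 402 counts (6.70-fold, interval 5.01 to 9.13), and SERPING1, its inhibitor, had 0 and 20. Of 24 cell death genes 19 had 20 counts, 1 with under 10 untreated, and 7 were past 2-fold higher. They included APOL1, APOL2, APOL3 and APOL6, of a lipoprotein family with interferon-responsive members, at 16.2-, 6.66-, 21.6- and 3.41-fold. CASP4, an inflammatory caspase, had 182 and 852 counts. CASP8, the initiator caspase of death receptors, had 181 and 343 (log2 ratio 0.71).

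Tryptophan genes split sharply. IDO1, which degrades tryptophan, had 1 count untreated and 577 treated, a ratio of 500.3 with an interval of 89.5 to 19796. WARS, the tryptophanyl-tRNA synthetase, had 428 and 3021 (6.12-fold, 5.53 to 6.79), at 337 CPM after treatment against 1385 in 549, 4173 in A375 and 1346 in A498. Its log2 ratio of 2.61 lay below the 4.94, 5.11 and 4.5 of those lines. The edgeR difference was −2.24 ± 0.44 (SE, adjusted p = 1), and DESeq2 called it. KYNU, KMO, AFMID and QPRT, later enzymes of the route, had log2 ratios from −0.61 to 0.78. Of 19 NF-kB targets, cytokines and adhesion genes 16 had 20 counts, 1 with under 10 untreated, and 10 were past 2-fold higher, with IL32 at 22 and 735 counts (29-fold, 19 to 46.5), CSF1 at 13 and 151, BIRC3 at 609 and 2748, and IL15 at 14 and 89. ICAM1, an adhesion molecule, had 2 and 1 counts in H1703, 5 and 12 in 549, 1164 and 3357 in A375, and 237 and 2279 in A498. UBD, a ubiquitin-like modifier, had 3 and 191 counts (55.2-fold, 18.6 to 270.1).

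Few genes were clearly lower in treated H1703. KRT81, a hair keratin, had 40 and 3 counts, a ratio of 0.0650 (interval 0.0129 to 0.204). The 549 libraries held 26536 and 42534 KRT81 counts, and the part of reads from other libraries in the H1703 value was not tested. NGEF, a guanine nucleotide exchange factor, had 57 and 7 counts (0.106, 0.0410 to 0.234). FOSB, an immediate early gene, had 80 and 24, and CERK, the ceramide kinase, had 239 and 98. GRIN1, CLDN4, LINC01023 and FOXCUT, with 18, 22, 40 and 43 untreated counts, had 2, 4, 11 and 14 treated. HIST1H4C, a replication-dependent histone, was the most abundant gene in this group, at 8546 and 4985 counts. Its log2 ratio was −0.98, and it was −0.84, −0.96 and −0.97 in 549, A375 and A498. Of 193 genes past 2-fold lower in H1703, 126 were tested in the other 3 lines and 7 were called lower there. Over all 13435 genes tested in those lines, 140 (1.04%) were called lower.

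Outside the interferon lists, the stress genes that rose in the other lines stayed within 2-fold in H1703, some of them lower. Of 20 genes of the ATF4 and unfolded protein response, all 20 had 20 counts in H1703, and 0 were past 2-fold in either direction, with log2 ratios from −0.72 to 0.88. In H1703 9 of them were above 0, and DDIT4 was the lowest, at −0.72 with a counting interval of −0.89 to −0.56. This response answers amino acid shortage and misfolded protein in the endoplasmic reticulum, and 9 of the 20 rose in the test of the other 3 lines described below. The median was −0.07 in H1703 against 1.41, 1.92 and 0.78 in 549, A375 and A498, and H1703 was the lowest of the 4 lines for 17 of the 20 (85.0%, against 23.7% of all genes). CHAC1, which degrades glutathione, had 361 and 354 counts in H1703 (46.5 and 39.5 CPM). It went from 5.94 to 73.3 CPM in 549, from 26.8 to 397 in A375 and from 18.6 to 171 in A498. ASNS, asparagine synthetase, had 1531 and 1454 counts in H1703 (197 and 162 CPM), and went from 55.8 to 298 CPM in 549, from 65.7 to 586 in A375 and from 80.5 to 363 in A498. For both genes untreated H1703 was the highest of the 4 untreated libraries, and treated H1703 the lowest of the 4 treated ones. ATF4 itself had 2990 and 3158 counts, and DDIT3 (CHOP) had 1052 and 1281. TRIB3, an ATF4 target, did not share the high start: it had 21.6 CPM in untreated H1703 against 35.8, 25.8 and 64.4 in the others. SESN2, a sensor of leucine and stress, shared it, at 82.9 CPM against 27.6, 32.3 and 69.9. SESN2 had 644 and 637 counts in H1703 and log2 ratios of 3.25, 4.64 and 2.62 elsewhere. The 20 genes of the list summed to 2696 CPM in untreated H1703, against 3338, 2939 and 3326 in 549, A375 and A498.

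Metabolic genes, several of them known ATF4 targets, were within 2-fold as well, WARS aside. The serine, one-carbon and transsulfuration list, added after values were seen, had 0 of 13 genes past 2-fold in H1703 and 3 above 0. Its median was −0.18 against 1.37, 1.62 and 1.15. PSAT1 had 1977 and 1686 counts, MTHFD2 had 1519 and 1718, and PCK2 had 350 and 337. The serine, one-carbon and transsulfuration list summed to 1214 CPM in untreated H1703, against 723.3 in 549, 795.4 in A375 and 1106 in A498. The aminoacyl-tRNA synthetases, added in the same way, had a median of −0.07 against 0.69, 0.59 and 0.62, and WARS was the 1 of 18 past 2-fold higher. Their untreated sum was 4526 CPM in H1703, against 2573 in 549, 3415 in A375 and 3221 in A498. AARS, GARS and SARS had log2 ratios of −0.13, −0.21 and −0.31 in H1703 and of 1.01 to 1.85 in the other lines.

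**Figure D3:**
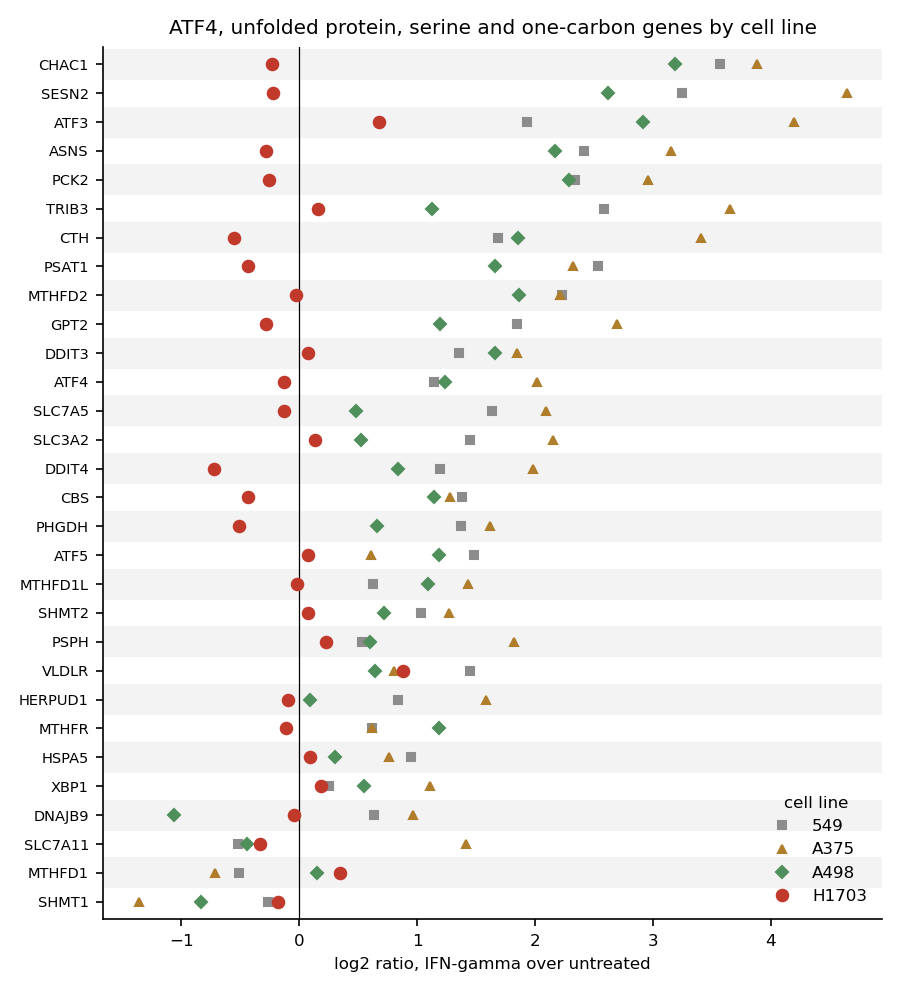
Log2 ratio of treated over untreated for 30 genes of the ATF4, unfolded protein, serine and one-carbon lists (rows, ordered by the mean of the other lines) in each of 4 lines (1 point per line). H1703 points lie between −0.72 and 0.88, and CHAC1, at −0.23 in H1703, lies at 3.18 or more in the other lines.

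Sterol synthesis, proliferation and respiration had medians near 0 in H1703. Of 23 sterol genes with 20 counts, 1 was past 2-fold higher in H1703 (HSD17B7, 28 and 68 counts), and 0 were lower. The median was −0.08 against −0.85, −1.50 and −0.73. HMGCS1, an early enzyme of the mevalonate route, had 876 and 1113 counts, a log2 ratio of 0.14 against −1.10, −1.67 and −1.17. Of 37 proliferation genes 0 were past 2-fold in H1703, and the median was −0.04 against −0.69, −1.31 and −0.38. MKI67 had 4865 and 5441 counts, TOP2A had 14907 and 14758, and PCNA had 770 and 1306. H1703 was the highest of the 4 lines for 32 of the 37 (86.5%, against 24.0% of all genes). The respiratory chain median was −0.14 against −0.48, −0.73 and −0.48. Housekeeping and ribosomal protein medians were −0.03 and −0.24, with 0 genes past 2-fold in either list.

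**Figure D4:**
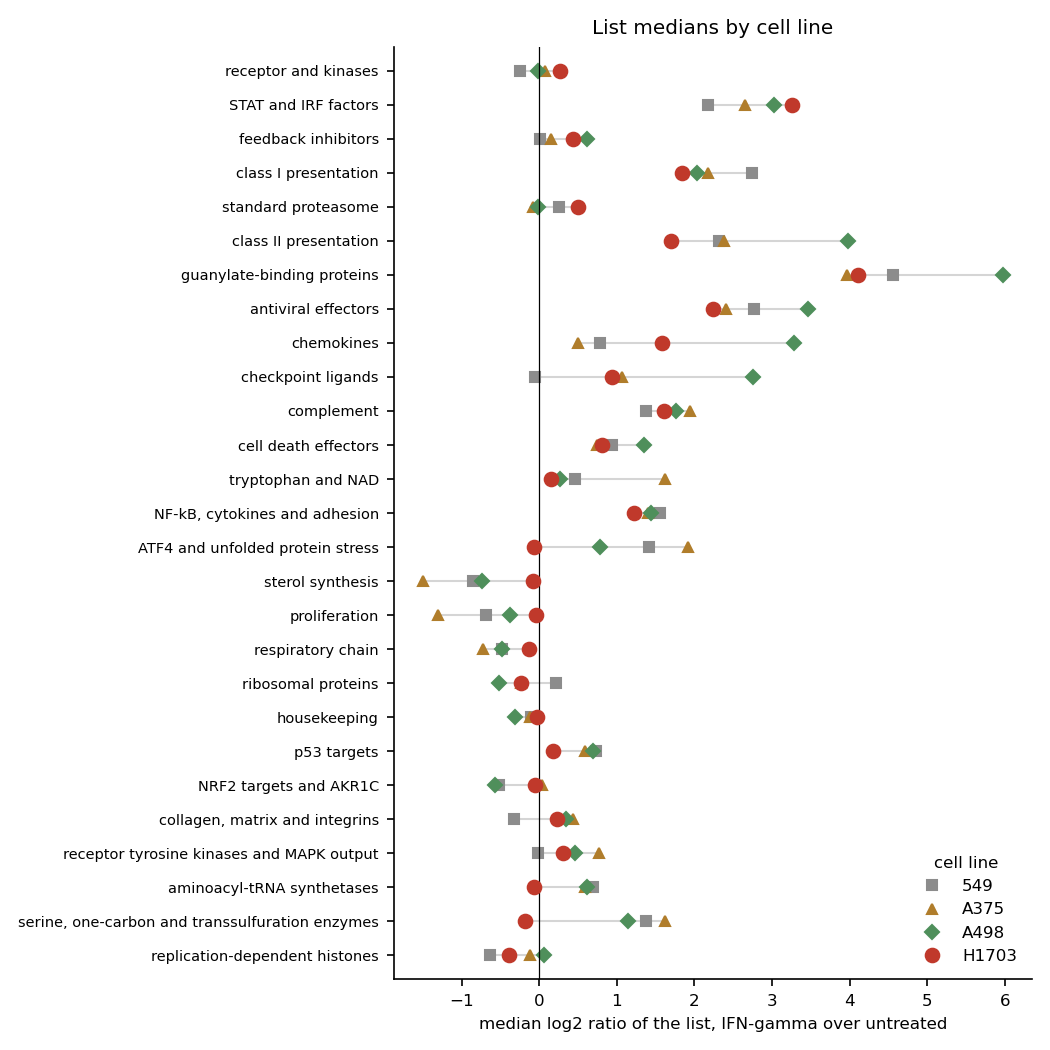
Median log2 ratio of each list in 549 (grey squares), A375 (ochre triangles), A498 (green diamonds) and H1703 (red circles), over the list members with 20 counts or more in the H1703 pair. H1703 lies within or near the range of the other lines for most interferon lists, and nearest to 0 for the ATF4 (−0.07), sterol (−0.08) and proliferation (−0.04) lists.

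Further lists held from 1 to 4 genes past the threshold, beside 3.04% higher and 1.47% lower over all genes. A single gene past it is not read as a change of its list. Of 19 p53 targets with 20 counts 4 were past 2-fold higher: CDKN1A, the cell cycle inhibitor p21 (104 and 328 counts, 2.73-fold, interval 2.19 to 3.44), FAS (37 and 108), PMAIP1 (297 and 729) and BTG2 (25 and 60). BTG2 lay at the threshold, with a log2 ratio of 1.00, and the count was 3 with a prior count of 5, RLE or upper-quartile scaling, or library size alone. The p53 median was 0.18 in H1703 against 0.73, 0.59 and 0.70, and H1703 was the lowest of the 4 lines for 10 of the 19 (52.6%, against 23.7% of all genes). AKR1C2, a steroid reductase with near-identical relatives, was the 1 of 15 NRF2 and AKR1C genes past 2-fold lower, at 28 and 9 counts. NQO1 had 6753 and 6197 counts, and HMOX1 had 2872 and 3218. Of 19 receptor tyrosine kinase and MAPK genes, MET (343 and 934), CCND1 (468 and 1212) and FOSL1 (182 and 490) were past 2-fold higher. PDGFRA had a log2 ratio of −0.49 (fold 0.711, interval 0.689 to 0.734). Of 18 collagen, matrix and integrin genes 1 was past 2-fold higher, COL1A1, at 7 and 20 counts. Of 10 replication-dependent histones, a list added after values were seen, 1 was past 2-fold lower, HIST1H1B, at 140 and 66.

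To set H1703 against response genes that were chosen without it, treatment was tested in 549, A375 and A498 by edgeR's quasi-likelihood test with cell line as a term. Of 13435 genes 315 (2.34%) rose and 140 (1.04%) fell at an adjusted p under 0.05. Of the 315, 279 had 20 counts in H1703 and 121 of them (43.4%) were past 2-fold higher there, against 3.04% of all genes. This share depends on which lines and tool make the calls: it was 57 of 73 genes (78.1%) without 549, 39.9% without A375, 36.0% without A498, and 170 of 626 (27.2%) with DESeq2 in place of edgeR. Without 549 the calls were 85 higher and 3 lower, without A375 the falls were 228, and without A498 they were 301. The 121 genes made up 30.25% of the 400 genes past 2-fold higher in H1703. For the members of the interferon-response lists among the 315, 75 of 83 (90.4%) were past 2-fold higher in H1703, with a median of 2.61 against 3.07, 2.96 and 3.34. For the stress, synthetase and one-carbon lists without WARS it was 0 of 20, with a median of −0.22 against 1.71, 2.11 and 1.42. The synthetase and one-carbon lists were added after values were seen, so this 0 of 20 is in part drawn from the same data. The ATF4 and unfolded protein list, not added later, held 9 genes called higher, and 0 of its members were past 2-fold in H1703. The synthetase gene WARS, also in the tryptophan list, was counted with the interferon lists, and its log2 ratio in H1703 was 2.608. For the 140 that fell, 7 of 116 (6.03%) were past 2-fold lower in H1703, with a median of −0.20 against −1.38, −1.52 and −1.17. The genes were picked by their ratios in 549, A375 and A498, which favours larger medians in those lines. The gap between these medians and that of H1703 therefore does not measure a difference in response.

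**Figure D5:**
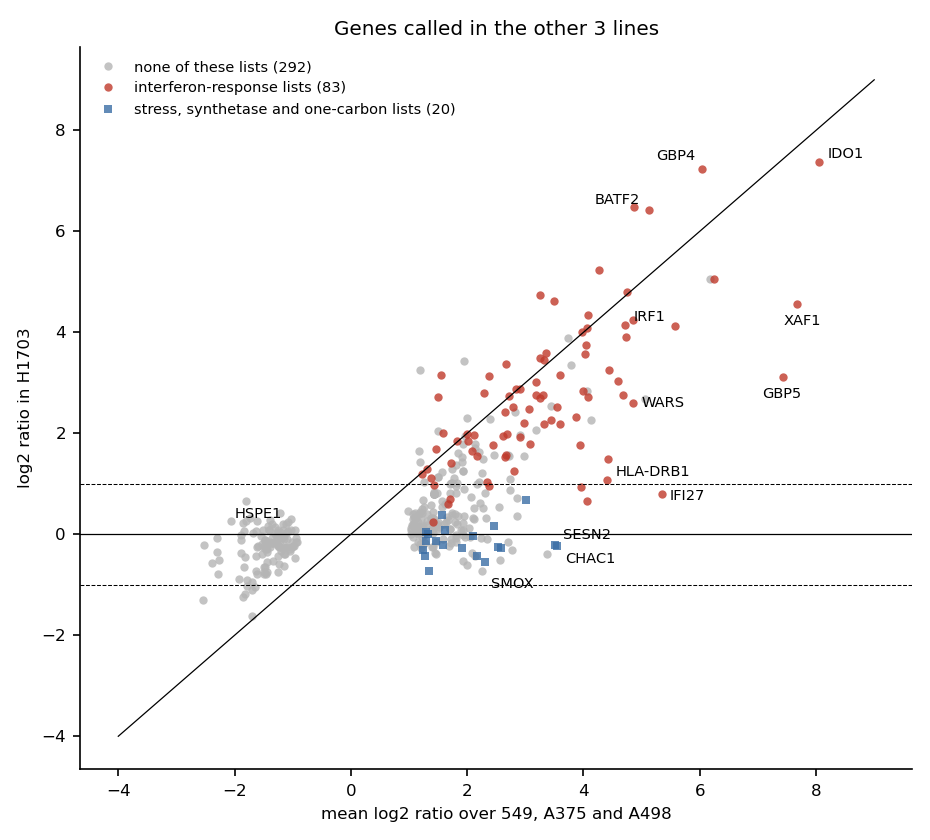
Log2 ratio in H1703 (y axis) against the mean log2 ratio of 549, A375 and A498 (x axis) for the 395 genes called in those 3 lines with 20 counts in H1703, with the solid diagonal at equal ratios and dashed lines at 2-fold. Of the 83 interferon-list genes (red, with WARS among them) 75 lie above the upper dashed line. The 20 stress, synthetase and one-carbon genes other than WARS (blue), in part from lists added after values were seen, lie between the dashed lines.

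The difference between H1703 and the other lines was tested gene by gene as an interaction of treatment and line. With 1 H1703 pair and 2 residual degrees of freedom, edgeR called 0 of 13457 genes (0%), with 418 at an unadjusted p under 0.05, limma-voom called 0, with 471, and DESeq2 called 16 of 7456, with 332. Of these 16, 14 were lower in H1703: CHAC1, SESN2, ASNS, PSAT1, MTHFD2, PCK2, SLC1A4, SLC6A9, SMOX, WARS, SLFN5, KRT81, HLA-DRB1 and HLA-DPA1. CLDN2 was among the 2 higher ones. For CHAC1 the edgeR difference was −3.81 ± 0.46 (log2, SE, adjusted p = 0.67), and the H1703 ratio lay below all 3 others. SMOX, spermine oxidase, had 235 and 162 counts in H1703, a log2 ratio of −0.73, against 2.66, 1.99 and 2.14. SLFN5, a Schlafen family member known from interferon responses, had 138 and 142 counts, a log2 ratio of −0.16 against 2.42, 2.59 and 3.12. SLC1A4 and SLC6A9, amino acid transporters, had log2 ratios of −0.61 and −0.50 in H1703 and of 1.64 to 3.31 elsewhere. DDIT4, an inhibitor of mTORC1, had 755 and 526 counts, and GATA3 had 51 and 40. CTH, which makes cysteine, had 20 and 15. On the higher side CLDN2, a tight junction gene, had 2 and 12 counts in H1703, and went from 2240 to 201 in 549. HSPE1, a mitochondrial chaperonin, had 768 and 927 counts in H1703 (log2 ratio 0.07) and log2 ratios of −1.55, −1.81 and −1.55 elsewhere. SERPINA3 (1 and 14), SOX9 (0 and 15) and TRIM38 (0 and 20) rest on few H1703 counts. A375 held 77909 and 13226 SERPINA3 counts. ASB9, called lower in the other lines, had 25 and 47 counts in H1703.

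The motifs of the promoters printed above were counted in wider gene groups. Of 400 genes past 2-fold higher in H1703, 279 had a RefSeq promoter window, and GAAANNGAA occurred in 30.1% of these and TTCNNNGAA in 11.5%. In windows of all genes with 20 counts (10257 windows) the shares were 6.42% and 6.29%. Among genes that rose in the other lines and were past 2-fold higher in H1703 (77 windows), GAAANNGAA occurred in 49.4%, TTCNNNGAA in 18.2% and TGATGNAA in 3.90%. Among genes that rose in the other lines with an H1703 log2 ratio of 0 or less (38 windows), the shares were 2.63%, 0% and 15.8%, the last being 6 windows. In the 10257 windows TGATGNAA occurred in 1.57%. These are counts of letters in fixed windows, and binding was not measured.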

How the data were processed

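RNA was measured in 8 libraries of 4 cell lines, untreated or treated with IFN-gamma. The deposited table holds raw read counts per gene, and the authors also deposited normalized values on a log2 scale, which served only as an alternative. The tools Bowtie2 and edgeR and the build hg19 come from the submitters' processing notes. For the counting tool, annotation and strand setting the sources used here give nothing, and the labels' protocols name both a stranded poly(A) kit and a 3' end kit. Counts of overlapping, antisense and near-identical genes are therefore uncertain, and folds between genes of different length are not compared.

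Rows with the same symbol were summed (286 symbols of 24462), and 0 columns of per-sample values were left unused. Log2 ratios of the H1703 pair are of CPM scaled by TMM factors (edgeR 4.0.16, R 4.3.3) with a prior count of 2, for genes with 20 counts or more over the pair. Fold values are ratios of scaled counts with an exact 95% binomial interval. A gene with 0 untreated counts has no finite ratio, and only a lower interval bound. The other 3 lines and the interaction were fitted by edgeR's quasi-likelihood test after filterByExpr, with cell line as a term, 2 residual degrees of freedom and Benjamini-Hochberg adjustment over all genes tested. The cell line pairs the libraries, as the labels state, and the deviations of the pairs correlated at 0.847 to 0.903. The p-values measure the spread between lines. DESeq2 1.42.0 and limma-voom (limma 3.58.1) were alternatives. An exact sign permutation over 4 lines cannot give a two-sided p below 0.125.

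Named genes were the 15 higher and 10 lower genes of the H1703 pair with intervals farthest from 1, fixed pathway genes, up to 5 members past 2-fold per list, up to 6 per direction by interaction p, and 8 called in the other lines with the lowest H1703 ratio. Other list members were named after their values were seen, and some results are not reported here. The members and lists were chosen with earlier results of these data known. Promoters are from RefSeq on GRCh38.p14, matched by symbol, and no coordinate of the files was used.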

Additional observations from a re-analysis of the deposited data

Results flagged for a closer look

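Values of 4 lines were screened in 52 groups for 1 value far from the other 3. Chance flags about 1 in 20 groups, and 5 were flagged. The median log2 ratio of the aminoacyl-tRNA synthetases was −0.0715 in H1703, below the 0.59 to 0.69 of the other lines. The log2 ratio of IRF1 in A375 was 5.57, above the 4.15 to 4.36 of the others, H1703 being the lowest. The log2 ratio of TAP1 in A375 was 4.71, above 3.70 to 3.76, a range that includes H1703. FGFR1, a growth factor receptor, had a log2 ratio of −1.70 in 549 and of 0.40 to 0.77 in the others. The total of untreated A375 was 9291154 counts, and the totals of untreated 549, A498 and H1703 lay between 6750962 and 7101076.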

How the results depend on the processing

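The 400 genes past 2-fold higher in H1703 became 877 with no minimum count, 168 with a minimum of 200, and 196 with the whole interval past 2-fold. The 193 lower became 119 with a prior count of 5, 604 with no minimum, 74 and 12 with minimums of 50 and 200, and 8 by the interval. Genes called higher in the other 3 lines numbered 702 by DESeq2, 537 by limma-voom and 666 with no filter, and genes called lower 515, 309 and 366. Leaving out a line gave 85 to 472 higher, 3 to 301 lower, and 57 to 165 shared with H1703. The lowest value of each was without 549. In the paired design, dropping the cell line term (no replicate block) left 0 higher, 0 lower and 0 shared by edgeR, with 773 genes at an unadjusted p under 0.05. The interaction gave 16 calls by DESeq2 and 0 in the other fits run. Of 630 list counts under the alternatives 595 stayed within 1.5 times and 35 moved. Of 758 ratios of named genes 752 stayed, and 6 moved with a prior count of 5 (IDO1 to 6.38, CMPK2 to 5.92, IFI44L to 5.5, CXCL10 to 3.28, CXCL11 to 3.58 and HLA-DOB to 2.35). No direction reversed under these settings. Single pairs and low untreated counts limit the precision of the H1703 folds, and the cause of these shifts was not tested.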

Other observations

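Several genes in none of the lists were also far higher in treated H1703, and they were chosen after their values were seen. TNFSF13B, the B-cell survival factor BAFF, had 10 counts untreated and 222 treated, or 19.2-fold (exact 95% binomial interval 10.3 to 40.7). TNFRSF1B, a receptor for tumour necrosis factor, had 13 and 189 counts. These members of the TNF system were higher in all 4 lines, with log2 ratios of 1.33 to 7.33 for TNFSF13B and 1.51 to 4.20 for TNFRSF1B. BTN3A2 and BTN3A3, butyrophilins that gamma-delta T cells recognise, had 310 and 1759, and 44 and 322 counts. Their log2 ratios of 2.29 and 2.61 were above those of the other lines (0.41 to 1.05 and 0.52 to 1.87), and being close relatives they may share reads.

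SOD2, the mitochondrial superoxide dismutase, had 433 and 2055 counts in H1703 (4.12-fold, interval 3.71 to 4.58). SECTM1, a secreted and membrane protein of immune cells, had 345 and 2558 counts, and its log2 ratio was 2.68 in H1703, 4.68 in A375, and 0.51 and 0.69 in 549 and A498. NFE2L3, a relative of NRF2, had 244 and 1347 counts. Its log2 ratio was 2.25 in H1703 and 2.10 in A498, and 0.27 and 0.23 in 549 and A375. SSTR2, a somatostatin receptor, had 4 and 55 counts, a log2 ratio of 3.04 against 0.86, −0.54 and −1.11. The differences between lines were not called by edgeR.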
